A study of Mus musculus with 18 samples.

Results

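The early response of mouse melanoma cells to tunicamycin was read by comparing cells treated with the drug for 5 h with cells given vehicle. The means compared came from 6 of the 18 arrays of the series, 3 from each group, while the spread was estimated from all 18. The comparison covered 19938 genes, each represented by its brightest probe set with a single gene symbol. All cells were B16 F10.9-4, a line derived from the mouse B16 melanoma, in which doxycycline induces LIP, the short isoform of the transcription factor C/EBPβ that lacks most of the activating part. The vehicle and the tunicamycin 5 h group received no doxycycline. The series also holds cells given tunicamycin for 12 h and cells given doxycycline, either alone or followed by 5 or 12 h of the drug. Each group held 1 array from each of 3 independent experiments. Whether the line is 1 clone, and the doses of both drugs, are not given in the sources used here.

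Tunicamycin blocks the first step of N-linked glycosylation, so glycoproteins fold poorly in the endoplasmic reticulum (ER). The unfolded protein response that follows has 3 arms. The kinase PERK slows translation and favours the transcription factors ATF4 and CHOP, the nuclease IRE1 splices Xbp1 mRNA, and ATF6 is cut to a free transcription factor, the latter pair being known for raising ER chaperones. Each value is an RMA intensity on the log2 scale as the authors deposited it, and a change is the mean of the tunicamycin arrays minus the mean of the vehicle arrays on that scale, with limma's 95% confidence interval and its p adjusted over all genes. A gene is said to have risen or fallen where the adjusted p was under 0.05. Per-array values are given in the order of experiments 1, 2 and 3. The labels give no vehicle group harvested at 5 h, so time in culture and tunicamycin cannot be told apart.

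At 5 h 9.02% of the genes tested had changed: 813 had risen (4.08%) and 985 had fallen (4.94%). The changes were small: 91.6% of them were under 0.5 on the log2 scale, and 15 rises and 2 falls reached 2-fold. All 3 experiments gave the same direction for 1792 of the 1798 changed genes. The median change over all genes was 0.02. Higher genes made up 45.2% of the changed ones, but this split was not stable. It was 495 higher against 1578 lower (23.9% higher) with the array medians over genes set equal, and 779 against 569 (57.8% higher) without the tunicamycin array of experiment 2, whose residual SD of 0.113 was the highest of the 18 arrays (the next was 0.0895). The count of changed genes was 1176 without the vehicle array of experiment 1 and 1120 without that of experiment 3. Of 12 melanocyte markers 10 lay above the level of olfactory and vomeronasal receptor genes, taken here as silent (95th percentile 6.07), on all 6 arrays, Oca2 and Ednrb did not, and 3 of the 12 changed. The mean intensity of these 12 markers, taken off the log scale and then given as log2, ranged from 12.16 to 12.20 in vehicle. It ranged from 12.16 to 12.23 after tunicamycin. Markers above that level were 1 of 4 for T cells, 1 of 5 for macrophages, 0 of 4 for endothelium, 3 of 5 for fibroblasts and 2 of 4 for keratinocytes, and 0 of these 22 changed by limma's adjusted p (2 had an unadjusted p under 0.05). In RNA from whole cultures, fewer cells of a type and less RNA per cell cannot be told apart.

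The genes that rose most were not those of the unfolded protein response but Id3 and Id1, which encode inhibitors that bind and silence basic helix-loop-helix transcription factors and are classical targets of BMP signalling through SMAD proteins. Id1 read 8.43, 8.44 and 8.51 on the vehicle arrays and 10.26, 10.03 and 10.01 after tunicamycin. Id3 read 8.47, 8.33 and 8.58 and then 10.21, 10.18 and 10.26. Neither gene had overlapping groups, and the spread within each group was a small part of the difference. Among all genes, all 3 tunicamycin arrays stood above all 3 vehicle arrays in 13.4% and below them in 14.5%. These shares apply wherever groups are said here not to overlap. The change was 1.64 for Id1 (1.48 to 1.80, a 3.11-fold rise, adjusted p = 1.33e-10) and 1.75 for Id3 (1.60 to 1.91, 3.37-fold, adjusted p = 4.96e-11).

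Several inhibitors of the same pathway also rose, and others did not pass. Of 29 measured ID genes and BMP and TGF-β feedback genes 12 rose and 1 fell, against 4.08% and 4.94% of all genes, and the median of the list was 0.18. The fall, in the ligand gene Tgfb2 (-0.25), did not pass in 5 of the 6 fits that left out 1 of the compared arrays. This list and those below were written with earlier results of these data known. A share above that of all genes therefore describes a list and tests nothing. Smad6, an inhibitory SMAD that acts on BMP receptors, read 7.75, 7.82 and 7.73 in vehicle and 8.96, 8.83 and 8.92 after 5 h, a change of 1.13 (1.01 to 1.26, adjusted p = 7.84e-10). Pmepa1, which holds receptor-activated SMADs away from their receptor, read 8.45, 8.39 and 8.60 and then 9.49, 9.54 and 9.65, a change of 1.08 (0.94 to 1.22, adjusted p = 7.83e-09). In Smad6 and in Pmepa1 every tunicamycin array stood above every vehicle array. Smad9, another SMAD of the BMP branch, rose by 0.94 (0.81 to 1.07) and Atoh8, a helix-loop-helix factor, by 1.00 (0.84 to 1.16). The other members that rose, named here after their values were seen, were the inhibitory Smad7 (0.87), Id2 (0.60), the SMAD corepressors Skil (0.55) and Tgif1 (0.32), the secreted BMP antagonist Nog (0.43) and the ligand gene Bmp4 (0.22), whose vehicle mean of 5.56 lay under the silent-gene level of 6.07. Of the inhibitors, the decoy receptor gene Bambi (0.09, adjusted p = 0.402), the secreted BMP antagonist Grem1 (0.13, adjusted p = 0.467) and the corepressor Ski (0.18, adjusted p = 0.0917) did not pass. The receptor genes did not pass either: Bmpr2 stood at 0.16, Tgfbr2 at 0.07, Acvr1 at 0.01, Bmpr1a at -0.03 and Tgfbr1 at -0.05.

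**Figure D1:**
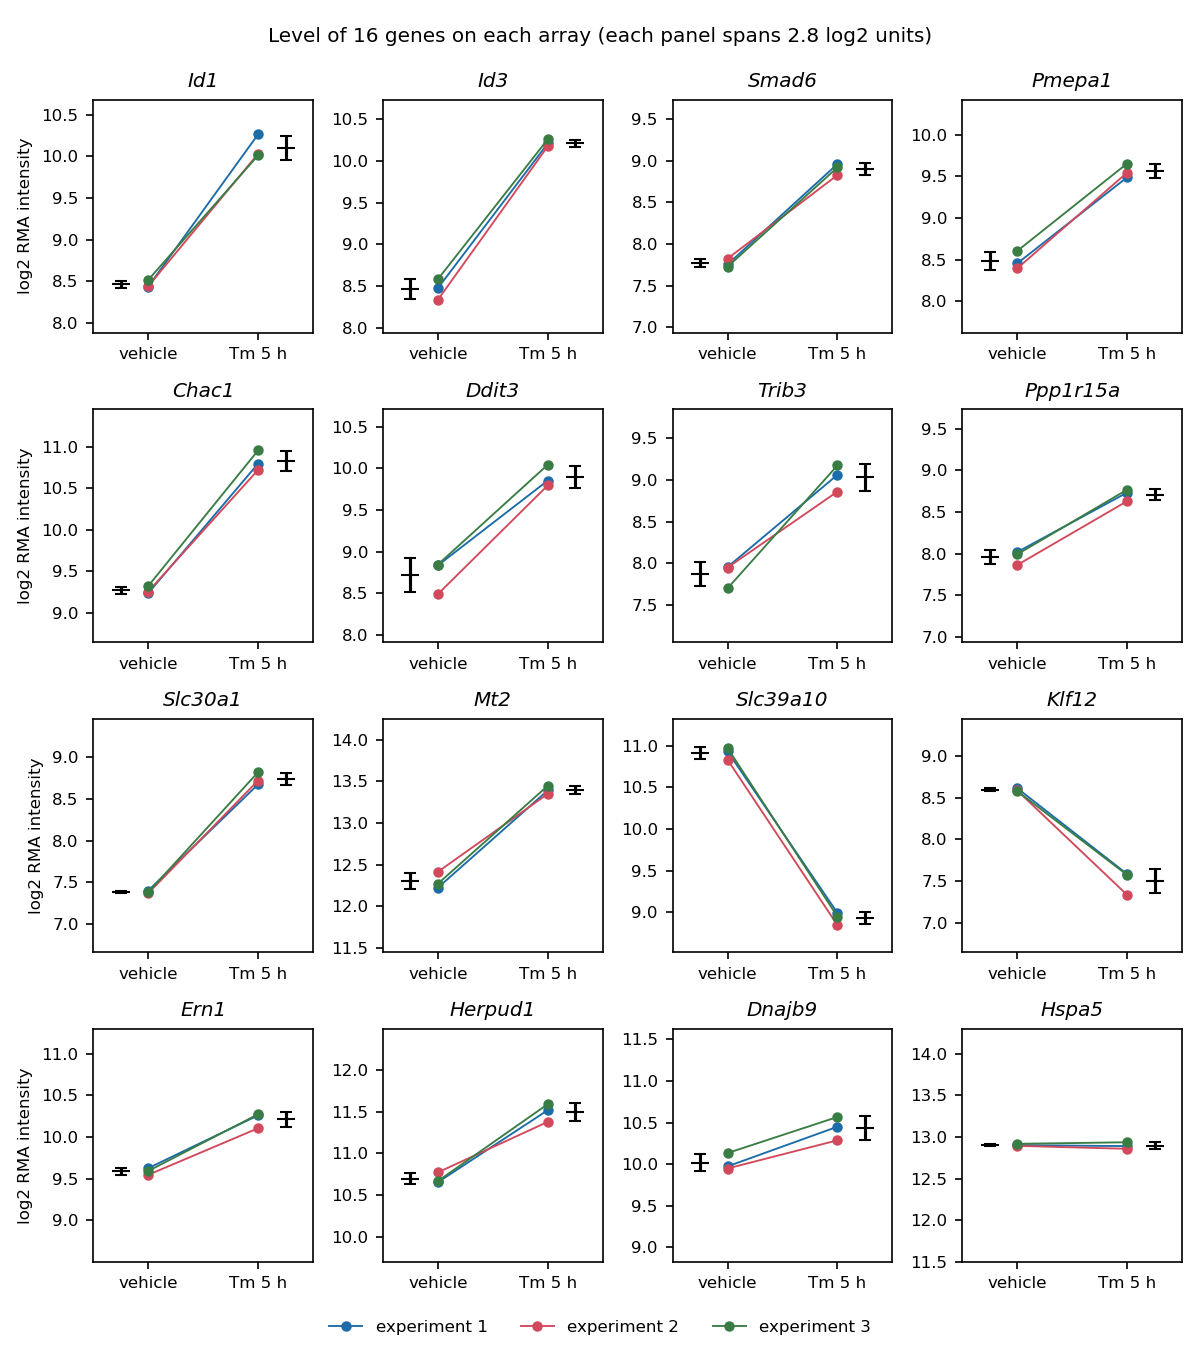
Log2 RMA intensity (y axis) of 16 genes on the vehicle and tunicamycin 5 h arrays (x axis), with a coloured line for each of the 3 experiments and black marks for the group mean ± SD. Each panel spans the same range, so slopes compare directly: Id1, Id3, Chac1 and Slc30a1 climb on all 3 lines, Slc39a10 drops by 1.98, and Hspa5 is level (-0.01).

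A second set of rises lay in genes that handle zinc. Cells keep free zinc low with exporters (the Slc30 family), importers (the Slc39 family) and the metallothioneins, small proteins that bind the metal. Exporter and metallothionein genes are known to be raised by the zinc-sensing factor MTF1 through metal response elements near their start. The 3 promoters with such an element among the changed zinc genes are shown because these genes rose together. Each run is the 250 bases before the gene's start in RefSeq (GRCm38.p6), read 5′ to 3′ on the gene's strand, which is the plus strand for all 3. They lie at chr1:191906531-191906780 (Slc30a1), chr8:94178839-94179088 (Mt1) and chr8:94172368-94172617 (Mt2). Capitals mark the core letters TGCACNC or TGCGCNC on either strand.
Slc30a1: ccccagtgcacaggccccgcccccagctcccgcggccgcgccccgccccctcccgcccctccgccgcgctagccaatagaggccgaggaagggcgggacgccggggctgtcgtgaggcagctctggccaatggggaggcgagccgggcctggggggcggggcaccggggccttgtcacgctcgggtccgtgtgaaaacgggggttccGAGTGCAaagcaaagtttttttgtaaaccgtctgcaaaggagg
Mt1: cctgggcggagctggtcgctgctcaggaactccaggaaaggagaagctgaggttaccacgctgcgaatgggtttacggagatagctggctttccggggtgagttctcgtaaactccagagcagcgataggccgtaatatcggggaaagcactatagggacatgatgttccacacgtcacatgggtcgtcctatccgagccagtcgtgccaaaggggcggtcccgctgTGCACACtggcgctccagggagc
Mt2: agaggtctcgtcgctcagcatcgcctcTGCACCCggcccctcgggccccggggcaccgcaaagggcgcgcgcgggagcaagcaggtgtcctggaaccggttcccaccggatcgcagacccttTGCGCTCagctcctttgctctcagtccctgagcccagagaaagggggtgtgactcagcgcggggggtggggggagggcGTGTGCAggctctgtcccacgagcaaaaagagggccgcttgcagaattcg
Mt2 held 3 matches, and Slc30a1 and Mt1 held 1 each. These cores are short and common: 28.6% of the 15614 tested genes with a promoter window held at least 1, as did 34.5% of the genes that rose, 31.6% of those that fell, and 13 of the 25 zinc genes with a window. A match describes the letters and is no evidence of binding.

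Slc30a1, the zinc exporter of the plasma membrane, read 7.40, 7.37 and 7.38 in vehicle and 8.68, 8.72 and 8.82 after 5 h of tunicamycin. The change was 1.36 (1.19 to 1.52, 2.56-fold, adjusted p = 4.17e-09). Mt2 went from 12.22, 12.41 and 12.27 to 13.39, 13.35 and 13.45, a change of 1.09 (0.96 to 1.23, adjusted p = 4.18e-09), and Mt1 from 12.39, 12.43 and 12.43 to 12.86, 12.74 and 12.86, a change of 0.41 (0.30 to 0.52, adjusted p = 7.52e-05). None of these 3 genes had overlapping groups, which held in the upward direction for 13.4% of all genes.

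The importer Slc39a10 moved the other way and was the largest change of the comparison. It read 10.93, 10.83 and 10.97 in vehicle and 8.99, 8.85 and 8.95 after tunicamycin, so its level dropped by 1.98 (interval -2.14 to -1.83, a 3.95-fold lower signal, adjusted p = 1.47e-11). The importer Slc39a14, which also carries iron and manganese, rose by 0.34 (0.20 to 0.48). Of the 29 measured zinc genes 5 rose (17.2%, against 4.08% of all genes) and 2 fell (6.90%, against 4.94%), and the median was 0.05. The rises numbered 3 without experiment 3, and the falls numbered 1 without any 1 experiment. The fifth rise, Slc39a13 (0.21), and the other fall, Slc30a9 (-0.20), were small, and leaving out single arrays ended the call of each: Slc39a13 had adjusted p = 0.0576, 0.0921 and 0.0894 without the vehicle array of experiment 1, that of experiment 2 and the tunicamycin array of experiment 2. Mtf1 itself stood at 0.00. Iron genes, taken as a comparison within metal handling, had 0 rises (2 at an unadjusted p under 0.05) and 1 fall among 17: Slc40a1, the iron exporter ferroportin, fell by 0.57 (adjusted p = 0.00067), although its mean of 5.86 ± 0.13 (SD, n = 3 arrays) after tunicamycin lay under the silent-gene level.

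Of 28 measured targets of PERK, ATF4 and CHOP 14 rose, 14 did not pass and 0 fell (0 also at an unadjusted p under 0.05). Of all genes 4.08% rose and 4.94% fell. In the list 27 members had a change above 0, and the median was 0.20. Ddit3, which encodes CHOP, read 8.83, 8.49 and 8.84 in vehicle and 9.85, 9.79 and 10.04 after 5 h, a change of 1.17 (1.00 to 1.35, 2.26-fold, adjusted p = 5.9e-08). Trib3, a pseudokinase that CHOP induces and that restrains it, read 7.95, 7.95 and 7.70 and then 9.06, 8.86 and 9.17, a change of 1.17 (0.97 to 1.36, adjusted p = 2.01e-07). Chac1, which breaks down glutathione, went from 9.24, 9.26 and 9.32 to 10.79, 10.72 and 10.95, a 2.93-fold rise. Groups did not overlap in any of these genes. The same held, in the upward direction, for 13.4% of all genes. Ppp1r15a (GADD34), which lets translation resume by directing the dephosphorylation of eIF2α, rose by 0.75 (0.61 to 0.89), the stress coregulator Nupr1 by 0.73 (0.55 to 0.92) and Atf3 by 0.66 (0.49 to 0.83). Atf4 mRNA rose by 0.36 (0.24 to 0.49). The remaining rises, named here after their values were seen except for Sesn2, Myc, Mthfd2 and Cebpg, were Sesn2 (0.58), Ddit4 (0.54), Jdp2 (0.43), Myc (0.37), Atf5 (0.37), Mthfd2 (0.25) and Cebpg (0.22). The call of Cebpg, a partner of ATF4, was lost without the vehicle array of experiment 3 (adjusted p = 0.13) and without any 1 of 3 others. Cebpb (0.19, 0.04 to 0.33, adjusted p = 0.121) did not pass, but did without the vehicle array of experiment 3 (0.26, adjusted p = 0.0438).

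Genes for amino acid supply, many of which ATF4 is known to drive, had 9 rises and 0 falls among 25 (0 also at an unadjusted p under 0.05), with a median of 0.13. Of all genes 4.08% rose and 4.94% fell. Without experiment 1 the rises numbered 5, and without experiment 3 they numbered 3. The rises were mostly transporters. The cystine importer Slc7a11 read 8.47, 8.43 and 8.51 in vehicle and 9.79, 9.54 and 9.75 after 5 h, a change of 1.22 (1.08 to 1.37, adjusted p = 3.13e-09). The neutral amino acid carrier Slc1a4 rose by 0.68 (0.47 to 0.90), the glycine transporter Slc6a9 by 0.48 (0.38 to 0.58), and Slc3a2, the shared heavy chain of several exchangers, by 0.26 (0.16 to 0.37). Among enzymes Cth, which makes cysteine, rose by 0.40 (0.27 to 0.53), Mthfd2 by 0.25 and Gpt2 by 0.24. Asns (0.10), Psat1 (-0.02) and Phgdh (0.00) did not pass. Cytosolic aminoacyl-tRNA synthetase genes had 0 rises and 0 falls among 17 by limma's adjusted p, and 2 rises at an unadjusted p under 0.05. Their median was 0.06 (0.03 without the vehicle array of experiment 2, and 0.01 with the array medians over genes set equal), and 2 rose with array weights. Cars, with the smallest p, stood at 0.15 (adjusted p = 0.155).

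The promoter of Nupr1 is shown because it was the only changed member of the PERK list with a C/EBP-ATF response element, the composite site that ATF4 and CHOP are known to use, in its window (chr7:126625471-126625720, minus strand, GRCm38.p6, RefSeq, read 5′ to 3′). Capitals mark the letters TGATGNAAT, here found on the opposite strand.
Nupr1: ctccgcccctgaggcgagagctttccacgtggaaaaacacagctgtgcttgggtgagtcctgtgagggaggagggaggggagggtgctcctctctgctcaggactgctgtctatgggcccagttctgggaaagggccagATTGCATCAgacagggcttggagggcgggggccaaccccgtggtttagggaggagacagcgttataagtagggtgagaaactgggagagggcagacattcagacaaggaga
This element was in 0.698% of the tested genes' windows. It was in 7 of the 646 windows of genes that rose (1.08%) and in 3 of the 794 of genes that fell (0.378%).

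Chaperone genes showed little change at 5 h. Of 30 ER chaperone and co-chaperone genes 1 rose and 1 fell, near the 4.08% and 4.94% of all genes, and the median was -0.01 (0.02 with quantile normalization repeated). Hspa5, which encodes BiP, the main ER chaperone, read 12.90, 12.89 and 12.92 in vehicle and 12.89, 12.86 and 12.94 after tunicamycin. The groups overlapped, and the change of -0.01 had an interval of -0.11 to 0.10, which leaves out a rise of more than 0.10 at 95% confidence. Dnajb9 (ERdj4), a BiP partner known as a target of spliced XBP1, was the member that rose: 9.97, 9.95 and 10.13 became 10.45, 10.29 and 10.57, a change of 0.42 (0.25 to 0.58, adjusted p = 0.00225). The fall of Fkbp14 (-0.25) was lost without any 1 of 5 of the 6 arrays. Of 24 genes of ER-associated degradation 3 rose (12.5%) and 1 fell (4.17%), and 1 rose without experiment 1 or without experiment 3. Herpud1, a scaffold of the degradation complex, read 10.65, 10.77 and 10.67 and then 11.52, 11.38 and 11.59, a change of 0.80 (0.67 to 0.92, adjusted p = 1.24e-07). Wfs1, an ER membrane glycoprotein, rose by 0.32 (0.18 to 0.46). The smaller calls of Ube2j1 (0.15) and Rnf5 (-0.23) did not hold without each array: Ube2j1 lost its call without any 1 of 5 arrays, and Rnf5 without the tunicamycin array of experiment 2 (adjusted p = 0.0818) or the vehicle array of experiment 3 (adjusted p = 0.0807).

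Among the sensors of the response, Ern1, which encodes IRE1α, rose from 9.63, 9.55 and 9.59 to 10.26, 10.11 and 10.27, a change of 0.63 (0.50 to 0.75, adjusted p = 2.24e-06) with no overlap of the groups. Eif2ak3, which encodes PERK, stood at 0.02 (-0.09 to 0.12), Atf6 at 0.09 (-0.03 to 0.20) and Xbp1 at 0.13 (adjusted p = 0.239). The array does not part spliced from unspliced Xbp1 mRNA. Without the tunicamycin array of experiment 1, 2 of the 15 sensor and factor genes rose in place of 1. The double-stranded RNA sensor Eif2ak2 (PKR) fell by 0.55 (-0.73 to -0.37, adjusted p = 0.000419). The N-glycosylation and hexosamine genes had 1 rise (Alg5, 0.26) and 2 falls (Alg14, -0.23, and Pmm1, -0.27) among 47. Translocon and vesicle coat genes had 0 rises (0 also at an unadjusted p under 0.05) and 1 fall (Sec23a, -0.19) among 49. In both lists these shares were under the 4.08% of all genes that rose and the 4.94% that fell. The glycosylation list had 2 rises without the tunicamycin array of experiment 2 or with quantile normalization repeated, and 10 with array weights. The translocon list had 2 falls without the tunicamycin array of experiment 1 and 3 with array weights. Pmm1 lost its call without any 1 of 5 arrays and Sec23a without the tunicamycin array of experiment 3 (adjusted p = 0.0505). Dpagt1, the enzyme that tunicamycin inhibits, stood at 0.05.

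The ER stress response element, a site known to be bound by NF-Y and ATF6, was looked for in the same windows. Hspa5 is shown because its promoter is a textbook case of the element, with the letters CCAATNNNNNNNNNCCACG in capitals (chr2:34771840-34772089, plus strand, GRCm38.p6, RefSeq, read 5′ to 3′).
Hspa5: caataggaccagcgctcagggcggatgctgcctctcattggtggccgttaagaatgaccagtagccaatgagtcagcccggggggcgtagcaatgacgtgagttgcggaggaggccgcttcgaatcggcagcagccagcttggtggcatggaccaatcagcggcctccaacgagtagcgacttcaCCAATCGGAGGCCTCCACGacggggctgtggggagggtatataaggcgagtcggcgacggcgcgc
The full element was rare, in 0.128% of the tested genes' windows, and stood in 8 of the 27 chaperone genes with a window: Calr, Canx, Creld2, Dnajc3, Ero1b, Hsp90b1, Hspa5 and Pdia6. At 5 h without doxycycline 0 of these 8 genes passed in limma, and 0 had an unadjusted p under 0.05, with changes from -0.08 to 0.04. With doxycycline 2 of the 8 rose at 5 h against 0 h, where 6.54% of all genes rose. They were Creld2 (0.33, limma adjusted p = 0.000835) and Hspa5 (0.16, adjusted p = 0.039). Without doxycycline 8 of the 8 were higher at 12 h of tunicamycin than at 5 h, by 0.11 (Canx) to 2.95 (Ero1b). In the whole chaperone list 29 of 30 genes were higher at 12 h than at 5 h, where 11.4% of all genes were higher and 13.6% lower.

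**Figure D2:**
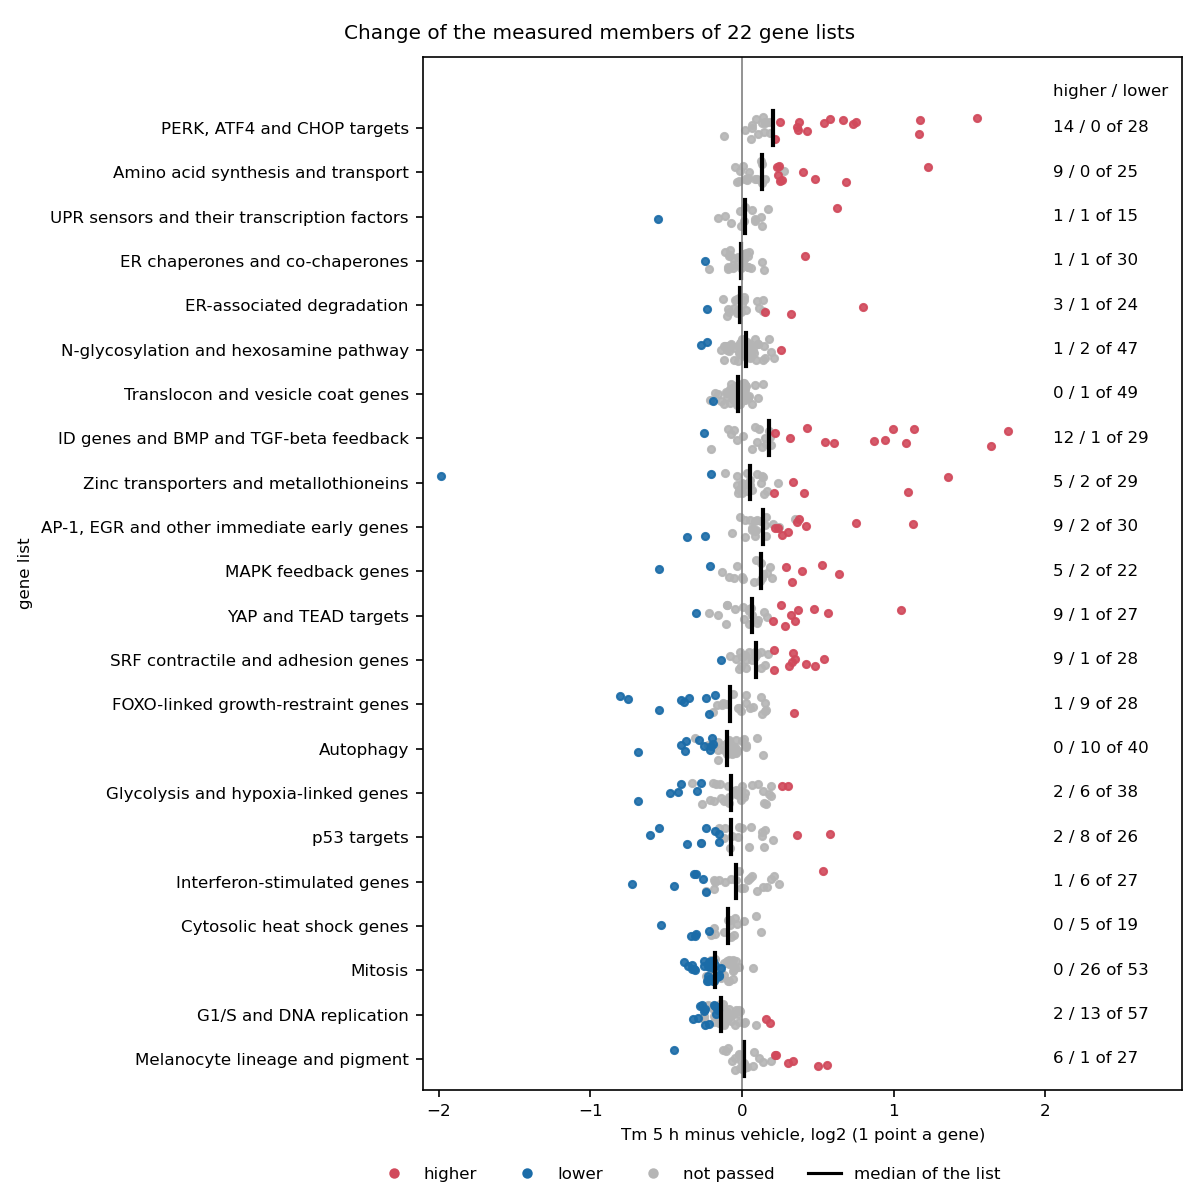
Tunicamycin 5 h minus vehicle on the log2 scale (x axis) for each measured member of 22 gene lists (y axis), coloured by whether it passed the test as higher or lower. A black bar marks each list's median and the figures at the right count higher and lower members; points for PERK targets and ID genes extend to the right past 1.5, 52 of the 53 mitosis genes lie left of 0, and chaperone genes centre on 0.

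Further rises lay among immediate early and growth factor feedback genes. The orphan nuclear receptor Nr4a3 had a mean of 8.99 ± 0.10 in vehicle and 10.12 ± 0.17 after 5 h (SD, n = 3 arrays each), with no overlap, a change of 1.13 (0.90 to 1.36, adjusted p = 2.54e-06). Maff, a small MAF factor, rose by 0.75 (0.54 to 0.96) and Myc by 0.37 (0.24 to 0.51). The vehicle mean of Maff, 5.99, lay under the silent-gene level of 6.07. In all 9 of 30 immediate early genes rose and 2 fell, against 4.08% and 4.94% of all genes, with a median of 0.14. The rises numbered 4 without experiment 1 or without experiment 3. One of the falls was Btg2, an antiproliferative gene (-0.36, -0.52 to -0.21), and the other was Jund (-0.24). The count of falls was 1 without the tunicamycin array of experiment 1, without that of experiment 2, without the vehicle array of experiment 2 or without that of experiment 3. Of 22 feedback genes of MAP kinase signalling 5 rose (22.7%) and 2 fell (9.09%). The rises numbered 2 without experiment 3, and the falls numbered 1 without any 1 experiment. The phosphatase gene Dusp4 rose by 0.64 (0.47 to 0.81), the Sprouty genes Spry4 and Spry1 by 0.53 (0.27 to 0.79) and 0.40 (0.24 to 0.55), Dusp2 by 0.33 and Dusp7 by 0.29, while the transcription factor gene Etv1 fell by 0.55 (-0.70 to -0.39).

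Lists tied to cell shape and the cytoskeleton held further rises, although most members did not pass. Of 27 targets of the YAP and TEAD factors 9 rose and 1, Tead2, fell (-0.30), or 2 with the replicate number as a block. Of all genes 4.08% rose and 4.94% fell. Ccn2, a matricellular protein, read 9.76, 9.64 and 9.64 and then 10.90, 10.69 and 10.60, a change of 1.05 (0.86 to 1.24, adjusted p = 7.74e-07). Tissue factor, F3, rose by 0.57 (0.42 to 0.72) and Ccn1 by 0.37 (0.23 to 0.51). Of 28 contractile and adhesion genes that SRF is known to control 9 rose, among them the focal adhesion gene Zyx (0.34, 0.24 to 0.43) and the fibronectin receptor chain Itga5 (0.54, 0.32 to 0.77). The rises numbered 4 without experiment 1 and 5 without experiment 3. The single fall in that list, Filip1l (-0.14), was lost without any 1 of the 6 arrays and with the block (0 falls). Of the other large rises the homeobox gene Hoxb9 went from 9.68, 9.53 and 9.70 to 10.83, 10.58 and 10.72 (1.08, 0.93 to 1.23) and the netrin receptor gene Unc5b from 7.98, 7.96 and 8.02 to 9.01, 9.04 and 9.05 (1.05, 0.92 to 1.19). Both had well separated groups.

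Among the falls, genes that restrain growth and that FOXO factors are known to raise had 9 of 28 members that fell and 1 that rose, with a median of -0.08. Of all genes 4.94% fell and 4.08% rose. Klhl24, a ubiquitin ligase adaptor, read 10.08, 9.99 and 10.02 in vehicle and 9.12, 9.22 and 9.32 after 5 h, a change of -0.81 (-0.96 to -0.65, adjusted p = 1.21e-06). Ccng2, a cyclin that slows the cell cycle, read 7.61, 7.56 and 7.54 and then 6.72, 6.91 and 6.83, a change of -0.75 (-0.91 to -0.59, adjusted p = 6.32e-06). Neither gene had overlapping groups, which held in the downward direction for 14.5% of all genes. Sesn1 (-0.55), Mxi1, an antagonist of MYC (-0.40), Sesn3 (-0.38) and Bcl6 (-0.35) fell as well. The member that rose, Txnip (0.34), binds thioredoxin. Foxo1 (-0.13) and Foxo3 (-0.02) did not pass, and Foxo4 fell by 0.22.

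Autophagy genes had 0 rises (1 at an unadjusted p under 0.05) and 10 falls among 40, with a median of -0.10. Of all genes 4.08% rose and 4.94% fell. The falls numbered 4, 5 and 3 without experiments 1, 2 and 3. Bnip3, a receptor for the removal of mitochondria that hypoxia is known to raise, read 9.27, 9.49 and 9.23 and then 8.72, 8.62 and 8.58, a change of -0.69 (-0.86 to -0.51, adjusted p = 3.54e-05). Atg101 (-0.40) and Ulk1 (-0.28), both of the initiating kinase complex, Gabarapl1 (-0.38) and Wipi1 (-0.37) fell, while Sqstm1, the cargo receptor p62, stood at 0.14. Glycolysis and hypoxia-linked genes had 2 rises and 6 falls among 38 (12 falls with the array medians over genes set equal, and 1 rise without the tunicamycin array of experiment 1 or the vehicle array of experiment 2 or 3). The 2 rises were 5.26% of the list, near the share of all genes. The falls, 15.8% of the list, numbered 2 without experiment 3. The liver-type phosphofructokinase gene Pfkl fell by 0.47 (-0.66 to -0.29), while Ldha (0.00), Slc2a1 (-0.01) and Hif1a (0.01) did not pass. Cpt1a, which admits fatty acids to mitochondria, fell by 0.62 (-0.78 to -0.45), and Ak4, an adenylate kinase of mitochondria, by 0.63 (-0.88 to -0.37). Klf12, a Krüppel-like repressor, showed the largest fall after Slc39a10 under the rule for named genes: 8.61, 8.59 and 8.58 became 7.58, 7.33 and 7.57, a change of -1.10 (-1.32 to -0.87, adjusted p = 3.61e-06), with every tunicamycin array far under the vehicle range.

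Genes of cell division stood slightly lower. Of 53 mitosis genes 26 fell and 0 rose (0 also at an unadjusted p under 0.05), and 52 had a change under 0, but the median was -0.18 and the lowest value -0.39. Of all genes 4.94% fell and 4.08% rose. Cenpi, a centromere protein, fell by 0.39 (-0.53 to -0.24), Hmmr, a spindle protein, by 0.35 (-0.48 to -0.23) and Nusap1, which bundles spindle microtubules, by 0.33 (-0.44 to -0.23). All 3 tunicamycin arrays lay under all 3 vehicle arrays for 45 of the 53, against 14.5% of all genes. The count of falls moved with single arrays: it was 14 without the vehicle array of experiment 1 or of experiment 3, 17 without the tunicamycin array of experiment 2 and 15 without that of experiment 3. It was 6, 7 and 3 without the whole of experiments 1, 2 and 3, and 13 with only the compared groups fitted. In the list for G1/S and DNA replication, 57 genes, 13 fell and 2 rose, with a median of -0.14. The rises numbered 1 without the vehicle array of experiment 1 or 2 or the tunicamycin array of experiment 1, and 0 without the vehicle or the tunicamycin array of experiment 3. The falls numbered 7, 8 and 5 without the vehicle array of experiments 1, 2 and 3, and 7 and 6 without the tunicamycin array of experiments 2 and 3. They numbered 3, 5 and 0 without the whole of experiments 1, 2 and 3. Gins1, a part of the replicative helicase, fell by 0.32 (-0.45 to -0.19). It kept its call without each single array, but not without experiment 3 (limma adjusted p = 0.124).

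Of 27 pigment cell genes 6 rose and 1 fell, against 4.08% and 4.94% of all genes. The rises numbered 3 without experiment 1 and 2 without experiment 3. The melanosome linker Mlph rose by 0.56 (0.43 to 0.69), the receptor gene Mc1r by 0.34 (0.18 to 0.49) and the lineage factor Sox10 by 0.30 (0.20 to 0.40). Tyr, the first enzyme of melanin synthesis, fell from 7.23, 7.22 and 7.37 to 7.04, 6.57 and 6.86 (-0.45, -0.65 to -0.25, adjusted p = 0.00538), while Tyrp1 (0.01), Dct (-0.02), Pmel (-0.01) and Mitf (0.19) did not pass.

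The same drug and time were also measured in cells with doxycycline, which induces LIP (5 h of tunicamycin against 0 h), on 6 other arrays. These arrays gave no mean to the comparison above, but they entered its estimate of spread and came from the same experiments. The overlap of calls is therefore not an independent replication. With doxycycline 6.54% of genes rose and 5.56% fell. Of the 813 genes that rose without doxycycline 552 rose there too (67.9% of the 813 and 42.3% of the 1304 that rose with it). Of the 985 that fell, 585 did (59.4% of the 985 and 52.8% of the 1109), and 2 genes passed in opposite directions. The change had the same sign for 95.9% of the 1798 genes, a set chosen for having passed without doxycycline. Over all genes tested the changes with and without doxycycline correlated at 0.64 (Pearson r). The zinc genes came close to their values without doxycycline: Slc30a1 rose by 1.37, from 7.34, 7.53 and 7.32 to 8.73, 8.75 and 8.81, and Slc39a10 fell by 1.85, from 10.53, 10.40 and 10.57 to 8.64, 8.61 and 8.69. Id1 rose by 1.59 and Id3 by 1.49. The ID and feedback list had 14 rises and 0 falls among 29, the PERK list 13 and 0 among 28, the chaperone list 6 and 0 among 30, and the mitosis list 0 and 49 among 53.

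**Figure D3:**
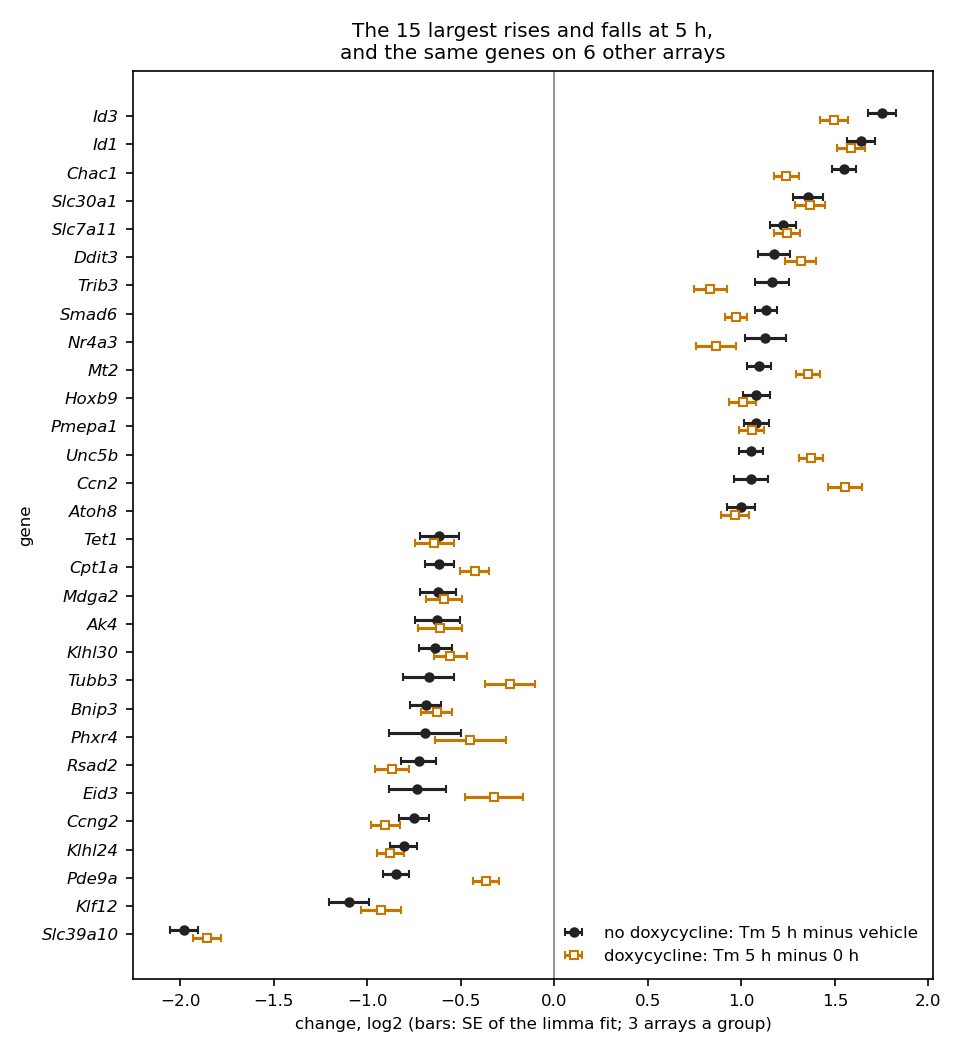
Change in log2 units (x axis) of 30 genes (y axis), the 15 top rises and 15 top falls under the rule for named genes,, without doxycycline (filled circles) and, on 6 other arrays, with it (open squares); bars are the SE of the limma fit with 3 arrays a group. Every square lies on the same side of 0 as its circle, with Ccn2 further out under doxycycline (1.55 against 1.05) and Pde9a nearer to 0 (-0.37 against -0.85).

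The difference between the changes with and without doxycycline was tested as an interaction, which 6 genes passed (0.0301% of those tested, with 1651 genes at an unadjusted p under 0.05). In each of the 6 the change was more positive with doxycycline. Cav1, the coat protein of caveolae, read 8.14, 8.07 and 8.12 in vehicle and 8.57, 8.31 and 8.44 after 5 h, and with doxycycline 7.74, 7.69 and 7.72 and then 8.90, 8.88 and 8.74. Its changes of 0.33 and 1.12 differed by 0.79 (0.56 to 1.02, adjusted p = 0.0197). The cytokine signalling inhibitor Socs2 changed by 0.47 and 1.17 (adjusted p = 0.0334), the small GTPase gene Rnd3 by 0.11 and 0.69 (adjusted p = 0.0212) and the smooth muscle gene Tagln, an SRF target, by 0.17 and 0.69 (adjusted p = 0.0212). Osgin2 changed by 0.08 and 0.78 (adjusted p = 0.0288) and Pwwp3b by -0.27 and 0.45 (adjusted p = 0.0212). Rnd3 and Tagln are outside the rule for named genes and are given because the count is small. These calls rested on few arrays: the count was 0 without any 1 of the 3 vehicle arrays, without the tunicamycin array of experiment 2 or 3, and without the array with doxycycline and 5 h of tunicamycin of experiment 1 or 2. It was 2 without the doxycycline array of experiment 1 or 3 and 15 without the tunicamycin array of experiment 1. Nupr1, which did not rise with doxycycline (0.16, adjusted p = 0.31), differed by -0.57 (-0.83 to -0.31), and this did not pass (adjusted p = 0.15).

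The levels after 12 h set the early changes in order. This comparison shares the tunicamycin 5 h arrays with the one above, so the values are given side by side. Between 5 and 12 h 2264 genes rose (11.4% of those tested) and 2719 fell (13.6%). The ID and feedback list had 2 rises and 12 falls in that interval. Id1 stood at 8.89, 8.76 and 8.74 at 12 h, 1.30 under its 5 h mean (adjusted p = 2.37e-10) and 0.34 over vehicle. Smad6 stood at 7.92, 7.93 and 8.00, 0.18 over vehicle, and Smad9 at 7.92, 7.90 and 7.74, 0.07 over vehicle (adjusted p = 0.488). Id3 kept more of its rise, 0.86 over vehicle, and Tgif1 went on rising, to 1.31.

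The PERK list had 21 rises and 1 fall over the same interval. Ddit3 stood at 11.60, 11.61 and 11.62 at 12 h, 2.89 over vehicle, and Nupr1 at 11.24, 11.17 and 11.19, 3.06 over vehicle. The fall was in Myc, 0.58 under its 5 h mean. Over vehicle, the 14 PERK list members that had risen at 5 h stood between -0.21 (Myc) and 3.06 (Nupr1) at 12 h, and the 12 ID list members between 0.06 (Bmp4) and 1.31 (Tgif1), so the ranges overlapped. Of the zinc genes Slc30a1 was 0.62 under its 5 h mean at 12 h and Mt1 0.17 under vehicle, and Slc39a10 had regained 0.72, leaving it 1.26 under vehicle. Dnajb9 and Herpud1 rose further, by 1.82 and 1.49, and Hspa5 by 0.70. Klhl24 and Ccng2 returned to 0.05 and 0.01 over vehicle. Mitosis genes had 0 rises and 30 falls between 5 and 12 h, and G1/S genes 1 and 45.

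**Figure D4:**
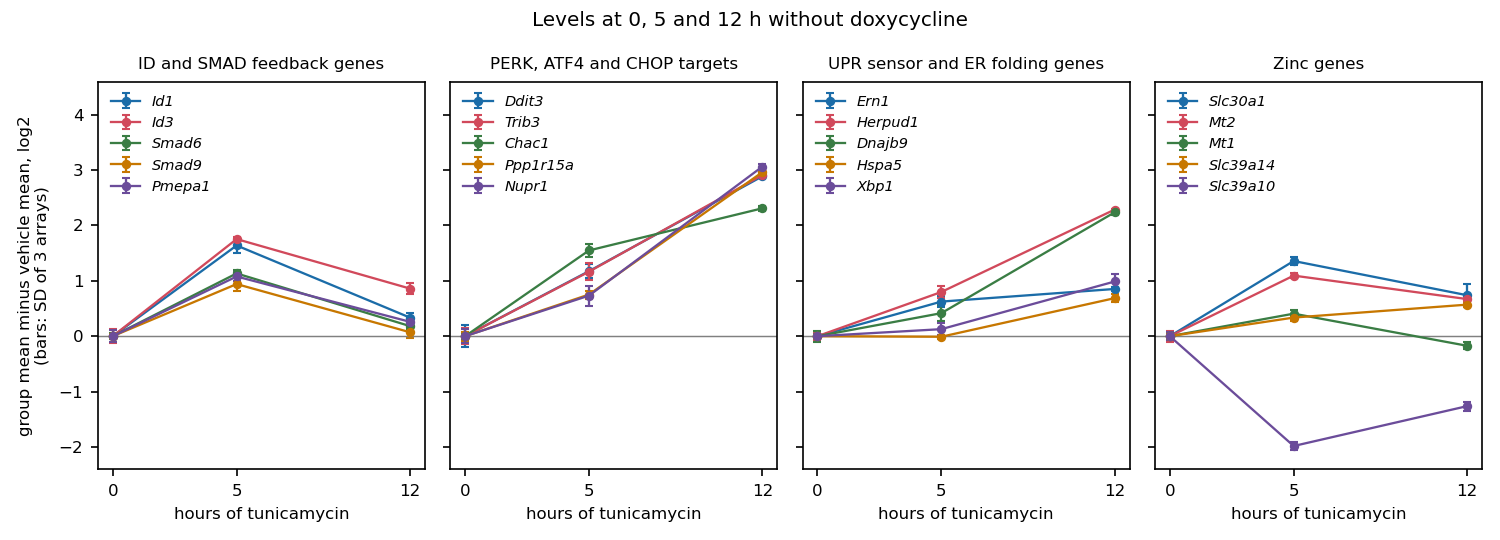
Group mean minus the vehicle mean in log2 units (y axis) at 0, 5 and 12 h of tunicamycin without doxycycline (x axis), for 5 genes of each of 4 groups; bars are the SD of 3 arrays. The ID and SMAD genes peak at 5 h, the PERK targets climb through 12 h to between 2.31 and 3.06, Hspa5 leaves 0 only after 5 h, and Slc39a10 is lowest at 5 h.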

How the data were processed

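RNA was labelled with Ambion and Affymetrix whole-transcript kits, per the labels' protocols. The deposited values are log2 intensities that the authors made with RMA in Partek, per the submitters' processing notes. Versions, background settings and genome build are not given in the sources used here, and RMA understates folds of dim probe sets. Of 35557 probe sets 21789 carried 1 gene symbol, and the brightest stood for each of 19938 genes. limma 3.58.1 (R 4.3.3; Python 3.11.15 for sequences and figures) fitted 6 group means to all 18 arrays, with 12 residual degrees of freedom, and p-values were adjusted over all genes (Benjamini-Hochberg, threshold 0.05). The code was tested on simulated data. The small number of arrays limits precision, and p-values measure the spread between experiments in 1 line. Replicate numbers pair the samples, since each experiment held every condition, per the series' design text; deviations of same-numbered vehicle and tunicamycin arrays correlated at 0.19, 0.17 and 0.01. The fit was set without this block, and the blocked fit is an alternative. Named genes were the 15 largest rises and falls above the silent-gene level that moved alike in all experiments, up to 6 changed members per list (or that with the smallest p) and a fixed set; others were named after their values were seen. The members and lists were chosen with earlier results of these data known. Some genes stood in several lists, such as Myc, Mthfd2, Slc7a11, Bnip3 and Sesn2, so list counts are not independent of each other. Promoters came from RefSeq (GRCm38.p6). Alternatives changed normalization, filters, variance model, probe sets, fitted groups and left-out arrays.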

Additional observations from a re-analysis of the deposited data

Results flagged for a closer look

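The 5 h change differed between cells with and without doxycycline in 6 genes by limma's interaction test. The change with doxycycline exceeded that without by 0.79 for Cav1, 0.73 for Pwwp3b, 0.69 for Osgin2, 0.69 for Socs2, 0.58 for Rnd3 and 0.52 for Tagln on the log2 scale. Probe sets without exactly 1 gene symbol were left out of the gene comparison; of 13768 such probe sets 117 were higher and 95 lower after 5 h of tunicamycin than in vehicle (limma, adjusted over these probe sets).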

How the results depend on the processing

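For 5 h of tunicamycin against vehicle, 1054 genes changed (494 higher, 560 lower) with only the compared groups fitted, 4381 (2247 and 2134) with array weights, 2758 (1379 higher) with a receptor gene component as covariate, and 17 (15 and 2) with 2-fold required. Array medians over genes set equal, chosen after seeing the data, gave 495 higher and 1578 lower. Leaving out 1 array or 1 experiment gave 419 to 1728 changed (223 to 779 higher, 196 to 949 lower), 941 to 2015 with doxycycline (565 to 1141 and 376 to 1038), and 3283 to 4730 for 12 against 5 h (1668 to 2239 and 1615 to 2638). The interaction count of 6 was 0 to 15 in those fits (0 to 14 higher, 0 to 1 lower), 2 (2 higher) with only the compared groups, 15 (15 higher) with equal gene medians, 27 (24 and 3) with a variance trend, 119 (70 and 49) with array weights and 37 (30 and 7) with the covariate. With the replicate number as a block 1879 genes changed at 5 h, 2491 with doxycycline, 5105 from 5 to 12 h, and 8 in the interaction (7 higher, 1 lower). The block kept 140 of 141 named calls, lost Hsph1 (limma adjusted p = 0.0549), added Psmd13 (adjusted p = 0.0351) and changed no other named call. Of those 141, 110 held without each single array and 65 in all 19 alternatives, and 0 of the 152 named genes reversed. Causes of these shifts were not tested.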

Other observations

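Further gene lists are given here beside the 4.08% of all genes that rose and the 4.94% that fell at 5 h. Among 27 interferon-stimulated genes 6 fell and 1 rose: the antiviral gene Rsad2 fell by 0.73 and the chemokine gene Cxcl10 rose by 0.53 (2 rises without the tunicamycin array of experiment 1). The 6 falls were 3 without the vehicle array of experiment 1 or 3 or the tunicamycin array of experiment 2. Among 26 p53 targets 8 fell and 2 rose, with Trp53inp1 at -0.61; the falls numbered 4 or 5 without any 1 of 5 of the 6 arrays. In the BCL2 and caspase list of 26, 1 rose and 4 fell. The rise was Bcl2, which restrains apoptosis (0.41), and 2 members rose without the tunicamycin array of experiment 3. Among the falls were Bcl2l11 (BIM), by 0.51, and Casp6, by 0.61.

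Cytosolic heat shock genes had 0 rises (1 at an unadjusted p under 0.05) and 5 falls among 19, led by Hspa4l (-0.53); 3 falls were left without the tunicamycin array of experiment 2 or 3 or the vehicle array of experiment 3. Cholesterol and fatty acid synthesis genes had 0 rises (0 also at an unadjusted p under 0.05) and 5 falls among 33, but 1 to 3 falls without any 1 of the 6 arrays. In the list of NRF2 antioxidant genes, 28 in all, 4 rose and 2 fell. The largest rise was that of Slc7a11, counted above among the amino acid genes. The falls numbered 0 or 1 without the vehicle array of experiment 1 or 3 or the tunicamycin array of experiment 2 or 3. Gclm, a subunit of the enzyme that starts glutathione synthesis, rose by 0.41. Of 21 ribosomal protein genes and 31 proteasome genes, 0 passed in limma's test, and 3 in each list had an unadjusted p under 0.05. Without the tunicamycin array of experiment 1, 1 gene of each list fell, and with the replicate block 1 proteasome gene, Psmd13, fell.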
